A study of Mus musculus with 32 samples.

Results

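The effect of extracellular vesicles (EVs) was compared between the 2 cell fractions of the same mouse lung organoid cultures. For every gene, the response to EVs in the CCL206 fibroblasts was set against the response in the Epcam+ epithelial cells. The comparison used 16 of the 32 libraries of the series, which are the vehicle and EV libraries of both fractions from mice 1 to 4, with 4 libraries in each of the 4 groups, and it covered all 11791 genes that passed a filter on low counts out of the 11818 in the table. The epithelial cells were CD31-, CD45- and CD326+ (Epcam+) cells of adult C57BL/6J mice. They were grown in Matrigel together with mitomycin-inactivated CCL206 cells, an established line of mouse lung fibroblasts, for 72 h. The EV group received vesicles that MRC5 cells, a line of human fetal lung fibroblasts, had released, and the control group received vehicle. Both fractions were then parted again with beads against CD326 and sequenced as bulk RNA. All fibroblasts came from 1 line, so a mouse number in the CCL206 fraction marks the culture, named for the mouse that gave the epithelial cells. Total counts per library ranged from 3067660 to 17675454 with a median of 6975588.5. In bulk RNA, fewer cells of a type and less RNA per cell cannot be told apart.

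EVs are membrane-bound particles that carry proteins, lipids and RNA between cells. In the alveolar niche, fibroblasts supply the extracellular matrix and growth factors that epithelial progenitors need to form colonies, and the epithelium signals back. A culture that receives EVs exposes both cell types at once, and a difference between the 2 responses (an interaction) shows which genes did not follow the same course in both.

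The response to EVs differed between the fractions for 844 of the 11791 genes (7.16%) by edgeR's quasi-likelihood test at an adjusted p under 0.05. Of these, 463 genes (3.93%) had the higher response in CCL206 fibroblasts and 381 (3.23%) the lower. The median size of the difference among called genes was 1.04 on the log2 scale, and 453 of them exceeded 2-fold, with 276 higher and 177 lower. The calls lay close to the threshold, because the lowest adjusted p of any gene was 0.038. The difference had the same sign in all 4 mice for 829 of the 844 called genes (98.2%), a measure that comes from the same libraries as the call, against 4495 of all 11791 genes (38.1%).

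The calls arose mainly on the fibroblast side. EVs alone changed 3759 genes in CCL206 fibroblasts (31.9%, with 16.9% higher and 15% lower) and 6 genes in Epcam+ cells (0.0509%, with no gene called lower). Of the 463 genes with the higher response in fibroblasts, 453 were also called up with EVs in the CCL206 fraction, and of the 381 with the lower response, 332 were called down there. None of the 844 was called in the Epcam+ fraction. The 463 higher genes had a median EV effect of 0.94 in CCL206 cells and -0.19 in Epcam+ cells on the log2 scale, and the 381 lower genes had -0.77 and 0.17. The fitted effects had opposite signs in the fractions for 407 of the 463 and 323 of the 381 genes. These genes were chosen for a large difference between the same effects, which favours opposite signs where the Epcam+ effects are small. No share of opposite signs over all tested genes is given for comparison. The signs therefore describe the called genes and do not show opposite regulation in the fractions. The plot of both effects shows the called genes spread mainly along the fibroblast axis.

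**Figure D1:**
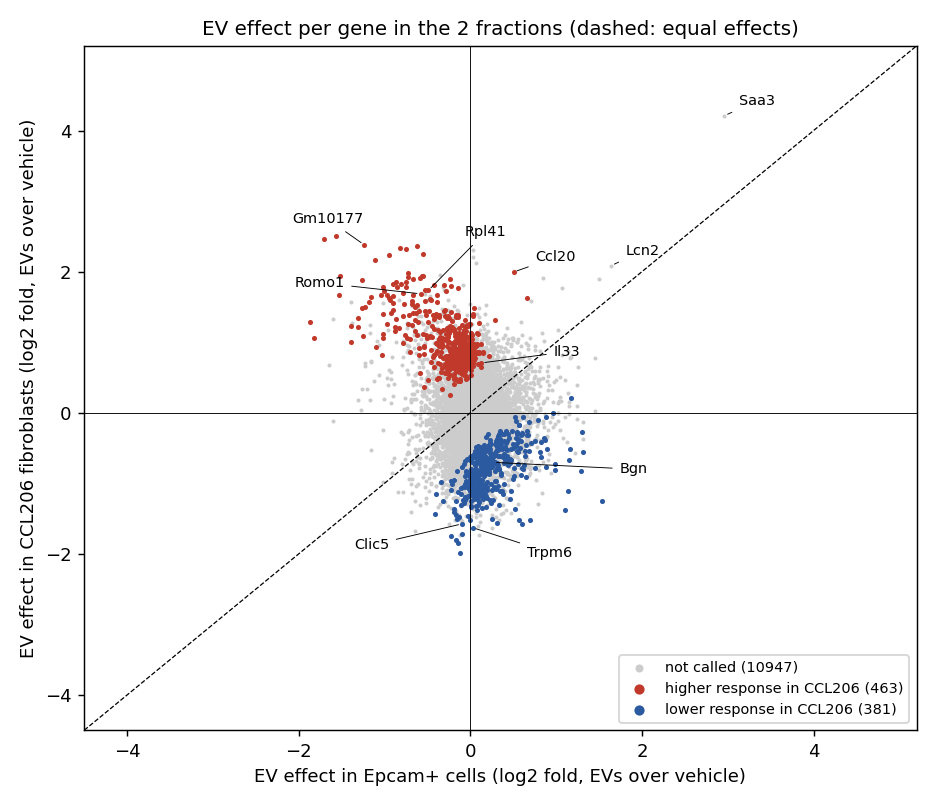
Each point is 1 of the 11791 tested genes, with its fitted EV effect (log2 fold, EVs over vehicle) in Epcam+ cells on the x axis and in CCL206 fibroblasts on the y axis, and the dashed line marks equal effects. The 463 red genes lie above the line and the 381 blue genes below it, while Lcn2 and Saa3, high on both axes, were not called different.

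The cultures of mice 2 and 4 carried much of this result, and transcript length moved with it. Without these mice, 24 genes were called (0.203%, with 0.136% higher and 0.0678% lower), 22 of them among the 844. Without mouse 2 alone, edgeR called 0 genes with 2274 at an unadjusted p under 0.05, and without mouse 4 alone it called 1 gene with 2246 such genes, whereas 1390 genes were called without mouse 1 and 195 without mouse 3. All 463 higher and all 381 lower genes kept their direction without mice 2 and 4. Their median difference was 0.70 in place of 1.09 for the higher genes and -0.64 in place of -0.98 for the lower. Mice 1 and 3 took part in calling these genes, so the kept signs follow largely from that choice and test nothing. With the mouse left out of the model as a block, 455 genes were called (3.86%), 294 of them higher (2.49%) and 161 lower (1.37%), and 425 were among the 844.

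Genes with short transcripts had the higher response in fibroblasts and genes with long transcripts the lower one. The median length was 1238 nt for the 463 higher genes, 7145.5 nt for the 381 lower genes and 3463.5 nt over all tested genes. In the tenth of genes with the shortest transcripts, from 67 to 1321 nt, 239 of 1166 were called higher and 4 lower, and in the tenth with the longest, from 7156 nt up, 1 was called higher and 189 lower. The median difference of the shortest class was 0.32 and 0.30 in mice 1 and 3, and 0.81 and 1.28 in mice 2 and 4. The correlation across genes of transcript length with the deviation from the vehicle mean was taken in each library. Spearman's rho was -0.29, -0.58, -0.37 and -0.62 in the EV libraries of CCL206 cultures 1 to 4. In the vehicle libraries of these cultures it was 0.19, -0.14, -0.14 and 0.01. In Epcam+ cells rho lay between -0.02 and 0.23 in the EV libraries and between -0.20 and 0.20 in the vehicle libraries. After this trend was taken out of each library, 258 genes were called (2.19%), 167 higher (1.42%) and 91 lower (0.772%), and 191 of these were among the 844 in the same direction (129 higher and 62 lower). With trends on transcript length, coding length and GC content taken out together, 650 genes were called (5.51%), 517 higher (4.38%) and 133 lower (1.13%), of which 332 were among the 844. The part of RNA quality or library preparation in the length trend was not tested.

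**Figure D2:**
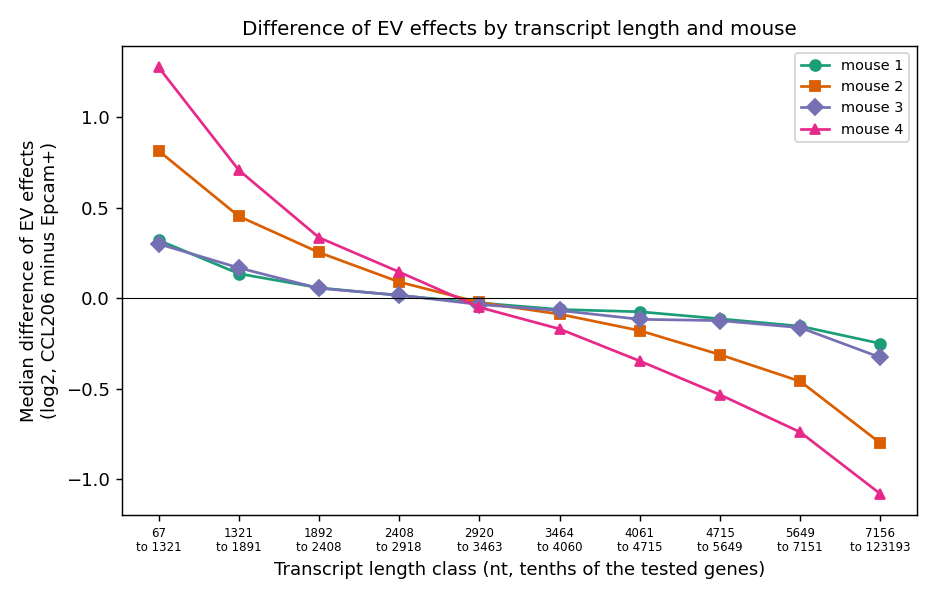
The x axis holds 10 classes of 1166 genes each by transcript length (nt), and the y axis the median difference of EV effects (log2, CCL206 minus Epcam+), with 1 line per mouse. All 4 lines fall from short to long transcripts, from 1.28 to -1.08 in mouse 4 and from 0.30 to -0.33 in mouse 3.

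The genes called higher are described from those with the smallest p among the 129 that also kept their call after the length trend was removed, all with the same sign in 4 mice. This removal uses annotated lengths, so it hardly lowered genes with a middling or long annotated transcript. Genes with no matched length received each library's mean trend. A call kept by such genes does not show that they are free of the trend. Romo1, a small mitochondrial protein that modulates reactive oxygen species, had 9.74, 13.7, 11.9 and 15.4 CPM in the vehicle CCL206 libraries of mice 1 to 4 and 19.0, 60.4, 27.8 and 78.4 CPM with EVs. In Epcam+ cells it had 20.5, 28.7, 26.9 and 36.1 CPM with vehicle and 13.9, 34.3, 17.7 and 13.9 CPM with EVs. The CCL206 groups did not overlap and the Epcam+ groups did. The difference of the responses was 2.27 ± 0.37 (log2, SE, 4 mice, adjusted p = 0.038), and it was 1.27 with the length trend removed and 1.68 without mice 2 and 4, both still called.

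Polr2f, a subunit shared by the nuclear RNA polymerases, had 19.3, 27.5, 26.9 and 30.1 CPM with vehicle and 33.4, 78.9, 55.8 and 120 CPM with EVs in CCL206 cells. Its Epcam+ levels lay between 46.8 and 61.2 CPM with vehicle and between 43.9 and 63.6 CPM with EVs, so that these groups overlapped. The difference was 1.49 ± 0.23, and 1.48 with the length trend removed. That value rests on an annotated transcript of 3007 nt, which may be longer than the one counted. Cops9, a small subunit of the COP9 signalosome that regulates ubiquitin ligases, showed 17.3, 30.4, 24.4 and 26.5 CPM with vehicle and 33.1, 113, 57.7 and 134 CPM with EVs in CCL206 cells, and its difference was 2.09 ± 0.37. Ppp1r14b, an inhibitor of protein phosphatase 1, was 1.06 ± 0.19 higher in its fibroblast response, and its EV effect in Epcam+ cells was -0.01 ± 0.13. H1f10, a linker histone, differed by 2.10 ± 0.35 and the unnamed gene 1810037I17Rik, which had no matched length, by 1.62 ± 0.29. With the 3 trends removed, Ppp1r14b was at 0.37 (adjusted p = 0.12) and H1f10 at 1.24 (adjusted p = 0.056), so both lost their calls. The 3 genes with the largest differences among those leading the list, Gm10177 (3.62 ± 0.54), Rps27a-ps3 (3.07 ± 0.53) and Ftl1-ps1 (2.49 ± 0.41), are predicted genes or pseudogenes. Their reads may come from near-identical parent genes, and the values are uncertain for that reason. Gm10177 also had only 4 to 8 counts in the vehicle CCL206 libraries.

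**Figure D3:**
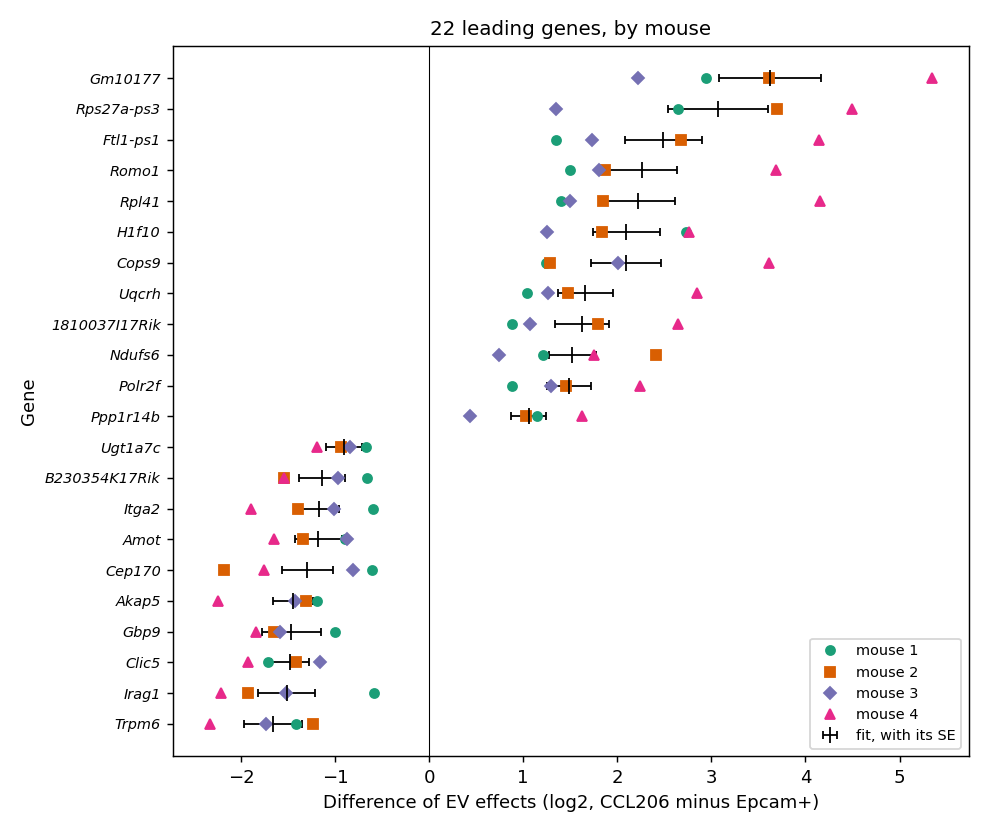
For 12 higher and 10 lower leading genes, the x axis gives the difference of EV effects (log2, CCL206 minus Epcam+), with 1 coloured symbol per mouse and the fitted value with its SE in black. Every symbol lies on the same side of 0 as its fitted value, and mouse 4 has the largest difference for 11 of the 12 higher genes.

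The cytosolic ribosomal proteins, the structural part of the translation machinery, had the higher response in fibroblasts as a list. Of 77 tested members, 34 were called higher (44.2% against 3.93% of all tested genes) and 0 lower, and all 77 fitted differences lay above 0. The median difference was 0.84 against -0.06 over all genes, made of 0.71 in CCL206 cells and -0.11 in Epcam+ cells. In CCL206 cells 69 members were called up, beside 16.9% of all tested genes. By mouse, the median was 0.52, 0.96, 0.30 and 1.56 for mice 1 to 4. Rpl41, a very small ribosomal protein, had 149, 230, 210 and 199 CPM with vehicle and 313, 994, 440 and 1294 CPM with EVs in CCL206 cells, so the groups did not overlap. Its Epcam+ levels were 474, 650, 672 and 772 CPM with vehicle and 377, 779, 497 and 280 CPM with EVs. Its difference of 2.22 ± 0.39 was 1.46 without mice 2 and 4, where the adjusted p was 0.0034. Rpl37a differed by 1.75 ± 0.32, Rpl34 by 1.34 ± 0.25, Rpl35 by 1.49 ± 0.29 and Rps21 by 2.16 ± 0.42. Ribosomal protein genes have many processed copies in the genome, and how reads were divided among them is not given in the sources used here. With the length trend removed the median of the list was 0.31 with 10 members called, and with the 3 trends removed it was 0.30 with 16 called.

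Nuclear-encoded subunits of the respiratory chain, which carries electrons from NADH to oxygen and drives ATP synthesis, moved in the same direction. Of 75 tested members, 44 were called higher (58.7%) and 0 lower, and 73 fitted differences lay above 0. The median difference was 0.95, with 0.77 in CCL206 cells and -0.17 in Epcam+ cells, and by mouse it was 0.57, 0.95, 0.37 and 1.80. In CCL206 cells 62 members were called up, beside 16.9% of all tested genes. Cox6a1, a subunit of complex IV, had 54.5, 68.6, 66.4 and 72.3 CPM with vehicle and 92.2, 219, 124 and 261 CPM with EVs in CCL206 cells. The Epcam+ levels of Cox6a1 were 102, 102, 115 and 116 CPM with vehicle and 86.3, 119, 93.3 and 83.2 CPM with EVs. The CCL206 groups were apart, and the Epcam+ EV library of mouse 2 lay above its vehicle partner while the other 3 lay below. The difference of 1.51 ± 0.25 kept its call without mice 2 and 4 (1.11, adjusted p = 0.022) and lost it with the length trend removed (0.51, adjusted p = 0.059). Uqcrh of complex III differed by 1.66 ± 0.30, Ndufs6 of complex I by 1.52 ± 0.25 and Atp5e, the epsilon subunit of ATP synthase, by 1.96 ± 0.36. Of these, Atp5e lost its call with the length trend removed (0.77, adjusted p = 0.0505). Ndufs6 was at 1.59 in that fit, but its annotated transcript of 3593 nt may be longer than the one counted. Over the list, the median was 0.38 with 10 members called after removal of the length trend and 0.50 without mice 2 and 4. The members are short, with a median transcript of 1101 nt, and the ribosomal proteins had 1096 nt.

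The sequence before the start of several of these genes is shown because genes of ribosomes and mitochondria often carry sites for ETS factors there. These 5 promoters were chosen because they hold such a match, and the same stretch of Ndufs6, Rpl37a, Rpl34 and Rpl35 holds none. The 120 bases before the annotated start are written 5′ to 3′ on the gene's strand from RefSeq (GRCm38.p6), with each match to the ETS letters CCGGAAG, on either strand, in capitals. Romo1 lies at chr2:156144113-156144232 (+), Rpl41 at chr10:128549169-128549288 (-), Uqcrh at chr4:116075071-116075190 (-), Cox6a1 at chr5:115348959-115349078 (-) and the first of the 2 Cops9 promoters at chr1:92641949-92642068 (-).
Romo1: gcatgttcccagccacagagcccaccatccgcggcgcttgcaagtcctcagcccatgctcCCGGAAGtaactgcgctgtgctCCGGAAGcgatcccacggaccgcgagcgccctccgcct
Rpl41: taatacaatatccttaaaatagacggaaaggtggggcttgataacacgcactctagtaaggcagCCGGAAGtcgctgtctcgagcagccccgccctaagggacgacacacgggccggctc
Uqcrh: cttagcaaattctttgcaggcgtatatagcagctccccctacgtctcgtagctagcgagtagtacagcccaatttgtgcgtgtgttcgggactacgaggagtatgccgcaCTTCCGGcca
Cox6a1: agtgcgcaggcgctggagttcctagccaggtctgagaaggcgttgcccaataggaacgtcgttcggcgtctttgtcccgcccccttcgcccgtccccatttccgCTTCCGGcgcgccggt
Cops9: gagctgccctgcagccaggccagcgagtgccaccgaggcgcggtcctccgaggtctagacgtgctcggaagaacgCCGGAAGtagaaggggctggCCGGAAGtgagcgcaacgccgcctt
Romo1 and Cops9 each held 2 matches and the others 1, and in Uqcrh and Cox6a1 the match lay on the other strand, near the start. Over the whole window of 300 bases, from 250 before to 50 after the start, the letters were found in 8.86% of all 32851 promoters and in 1930 of the 9158 tested genes with a promoter in the table (21.1%). They were found in 104 of 326 genes called higher (31.9%), in 39 of 300 called lower (13%), in 23 of 56 ribosomal protein genes (41.1%) and in 16 of 63 respiratory chain genes (25.4%). The letters GCATGCG of NRF1, a factor of mitochondrial genes, were found in 11 of 63 respiratory chain genes (17.5%) against 7.63% of tested genes and 3.58% of all promoters. These shares describe letters and were not tested.

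The proteasome, which degrades ubiquitin-tagged proteins, had 8 of 31 members called higher (25.8%) and 0 lower, with a median difference of 0.62 and 30 members above 0. The median was 0.17, 0.85, 0.32 and 0.98 in mice 1 to 4, and 0.23 with 1 call after the length trend was removed. Psmc3, an ATPase of the 19S cap, had 122, 123, 137 and 143 CPM with vehicle and 155, 250, 189 and 303 CPM with EVs in CCL206 cells, and its EV effect in Epcam+ cells was close to 0 with an SE of 0.12. Psma7, Psmb3 and Psmd13 differed by 0.91 ± 0.23, 0.87 ± 0.22 and 0.68 ± 0.19, and none of these 4 kept its call with the length trend removed. In the list of NRF2 and peroxide defence genes, 2 of 21 were called higher (9.52% against 3.93% of all tested genes). Prdx5, a peroxiredoxin that removes peroxides, had 128, 161, 162 and 159 CPM with vehicle and 212, 487, 273 and 632 CPM with EVs in CCL206 cells, against 115 to 173 and 139 to 163 CPM in Epcam+ cells. Its difference of 1.17 ± 0.26 was 0.80 with the length trend removed, still called. Sod1, the cytosolic superoxide dismutase, differed by 1.25 ± 0.28. The annotated transcript used for it has 5315 nt and may be longer than the one counted. Its value with the length trend removed (1.52) is uncertain for that reason.

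**Figure D4:**
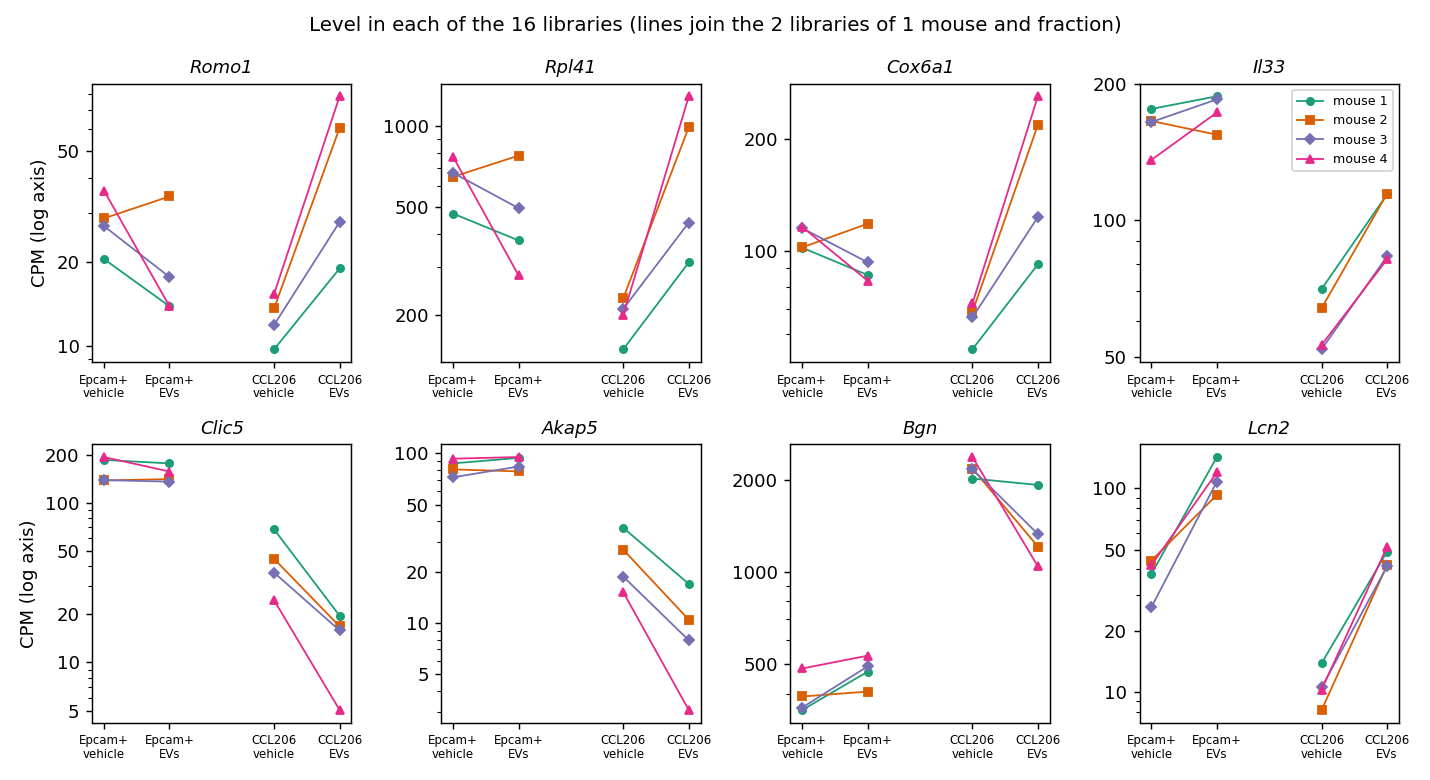
The y axes give CPM on a log scale in each of the 16 libraries for 8 genes, with lines joining the vehicle and EV library of 1 mouse and fraction. In CCL206 cells all 4 lines rise for Romo1, Rpl41, Cox6a1, Il33 and Lcn2 and all 4 fall for Clic5, Akap5 and Bgn, while in Epcam+ cells Lcn2 rises in every mouse.

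The genes with the lower response in fibroblasts were led by Clic5 and Akap5, both on the list of type 1 alveolar (AT1) cell markers. Clic5, a chloride channel-like protein tied to the actin cortex, had 68.0, 44.5, 36.5 and 24.5 CPM with vehicle and 19.6, 16.8, 15.9 and 5.04 CPM with EVs in the CCL206 fraction. The Epcam+ fraction had 185, 138, 139 and 193 CPM with vehicle and 176, 141, 135 and 157 CPM with EVs. Its level fell in every CCL206 culture and the groups did not overlap, while the Epcam+ groups overlapped. The difference was -1.48 ± 0.20, -1.10 with the length trend removed and -1.40 without mice 2 and 4, each still called. Akap5, an anchoring protein for protein kinase A, had 36.5, 27.1, 18.8 and 15.2 CPM with vehicle and 17.0, 10.5, 7.93 and 3.08 CPM with EVs in CCL206 cells, against 72.3 to 93.1 and 78.3 to 95.2 CPM in Epcam+ cells. Its difference was -1.45 ± 0.21 and was also called in both of those fits. Itga2, the collagen-binding integrin alpha 2 chain, differed by -1.17 ± 0.21.

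These 3 genes had higher levels in the Epcam+ fraction, and Itga2 had 31.6 to 45.5 CPM in vehicle CCL206 libraries against 200 to 241 CPM in vehicle Epcam+ libraries. The summed level of 9 AT1 markers in the CCL206 fraction was 765 to 1213 CPM with vehicle and 774 to 933 CPM with EVs. It was lower with EVs in mice 1 to 3 and higher in mouse 4, whereas Clic5 and Akap5 fell in all 4. The sum of 11 general epithelial markers in the CCL206 fraction was 739, 422, 488 and 292 CPM with vehicle and 563, 770, 549 and 935 CPM with EVs, higher with EVs in mice 2, 3 and 4. Epcam itself reached at most 15.0 CPM there with vehicle and 22.3 CPM with EVs. Sftpc, the surfactant protein of type 2 alveolar cells, had 990 to 2608 CPM with vehicle in the CCL206 fraction, so epithelial RNA was present in it. The part of carried-over epithelial RNA in the differences was not tested.

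The other leading genes with a lower response had varied functions. Irag1, a substrate of cGMP-dependent kinase in smooth muscle, had 65.0, 62.3, 54.4 and 57.7 CPM with vehicle and 29.9, 13.0, 19.5 and 11.5 CPM with EVs in CCL206 cells, and 6.91 to 12.3 CPM in all Epcam+ libraries. The difference was -1.51 ± 0.30 and the CCL206 groups did not overlap. Amot, an angiomotin that binds YAP, had 98.8 to 104 CPM with vehicle and 71.7, 41.1, 62.0 and 30.8 CPM with EVs in CCL206 cells, with a difference of -1.18 ± 0.25. Cep170, a centrosome protein, differed by -1.29 ± 0.27 and Trpm6, a magnesium channel, by -1.65 ± 0.31. Trpm6 had only 2 to 12 counts in the CCL206 EV libraries, so the size of its difference is uncertain. Gbp9, a guanylate-binding protein, differed by -1.46 ± 0.31. Ugt1a7c, a glucuronosyltransferase, differed by -0.91 ± 0.19 although neither of its single effects was called (-0.31 ± 0.13 in CCL206 and 0.59 ± 0.14 in Epcam+ cells). B230354K17Rik, with a transcript of 1459 nt, differed by -1.14 ± 0.24 and by -1.53 with the length trend removed.

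Collagens and matrix glycoproteins are a large part of what fibroblasts secrete. Of 28 tested members, 5 were called lower (17.9% against 3.23% of all tested genes) and 0 higher, and 26 fitted differences lay below 0. The median was -0.52, with -0.20 in CCL206 cells and 0.42 in Epcam+ cells, and by mouse it was -0.34, -0.95, -0.24 and -0.64. Fn1, fibronectin, had 4827, 4934, 5252 and 5788 CPM with vehicle and 4569, 2062, 4120 and 1341 CPM with EVs in CCL206 cells. In Epcam+ cells it had 905, 898, 995 and 1171 CPM with vehicle and 1273, 1162, 1688 and 1516 CPM with EVs. The CCL206 groups did not overlap, though the levels of mice 1 and 3 were far less reduced than those of mice 2 and 4, and every Epcam+ EV library lay above its vehicle partner. The difference was -1.44 ± 0.36 and -0.90 with the length trend removed (adjusted p = 0.048). Vcan, the large proteoglycan versican, differed by -1.22 ± 0.32, Nid1, nidogen of basement membranes, by -1.13 ± 0.30, and Lama2, a laminin chain, by -1.41 ± 0.38. With the length trend removed, Vcan, Nid1 and Lama2 lost their calls (-0.43, -0.79 and -0.79). The list's median was -0.16 with 1 member called after removal of the length trend, -0.05 with the 3 trends removed and -0.29 without mice 2 and 4, where 6 members lay above 0. Its members are long, with a median transcript of 6165 nt.

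Col1a1 and Col1a2, chosen for mention after their values were seen, make up the fibrillar type I collagen, and their differences were not called (-0.08 ± 0.21 and -0.25 ± 0.19). Col1a1 was called up in CCL206 cells (0.48 ± 0.15) and had an effect of 0.56 ± 0.15 in Epcam+ cells. Bgn, biglycan, was the called member of the 5 tested small leucine-rich proteoglycans (20% against 3.23% of all tested genes), which bind collagen fibrils and growth factors. It had 2016, 2173, 2160 and 2369 CPM with vehicle and 1921, 1208, 1328 and 1041 CPM with EVs in CCL206 cells, and 354 to 483 and 406 to 532 CPM in Epcam+ cells. The CCL206 groups were apart by a small gap, since mouse 1 hardly moved. The difference of -0.97 ± 0.22 was -1.09 with the length trend removed and -0.81 without mice 2 and 4, where it was not called. All 5 members had a difference below 0, with a median of -0.84 and -0.59 after the length trend was removed. Dcn, decorin, also chosen after its value was seen, was called up in both fractions (0.59 ± 0.11 and 0.76 ± 0.11) and its difference of -0.17 ± 0.16 was not called. Ogn, osteoglycin, chosen likewise, had a difference of -0.84 ± 0.27 with an adjusted p of 0.064. Loxl3, a lysyl oxidase that cross-links collagen, was the called member of 19 collagen-modifying genes (5.26% against 3.23% of all tested genes), with a difference of -0.75 ± 0.18 that lost its call when the length trend was removed (-0.61, adjusted p = 0.057).

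The summed level of 9 fibroblast markers includes Fn1, Dcn and Col1a2, so it is not separate from these results. In Epcam+ cells it was 2255, 2242, 2408 and 3118 CPM with vehicle and 3182, 3395, 3773 and 3733 CPM with EVs, higher with EVs in all 4 mice. In CCL206 cells it was 11468 to 12873 CPM with vehicle and 11668, 9274, 12954 and 7863 CPM with EVs, lower in mice 2 and 4. Fn1 alone fell there from 4934 to 2062 CPM in mouse 2 and from 5788 to 1341 CPM in mouse 4. In the same cultures Dcn rose from 576 to 1016 and from 585 to 828 CPM. Col1a2 rose from 3427 to 4165 and from 3717 to 4168 CPM. By these levels, fibroblast RNA was present in the Epcam+ libraries, and its part in the Epcam+ side of the matrix differences was not tested. The same holds for Hgf, Fgf2, C4b and Ugt1a7c, which had lower vehicle levels in Epcam+ than in CCL206 cells. Airway markers were lower with EVs in the Epcam+ libraries of all 4 mice. The sum of 3 secretory markers was 4086, 4262, 4283 and 3328 CPM with vehicle and 2178, 2342, 2843 and 2047 CPM with EVs, and the sum of 4 basal markers was 2273, 2565, 2074 and 885 CPM with vehicle and 1498, 1348, 1368 and 609 CPM with EVs. Their part in the differences was not tested either.

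The list of growth factor ligands also holds some that act on cells other than the epithelium. Of its 20 tested members, 2 were called higher and 2 lower (20% in all, against 7.16% of all tested genes). Pdgfa, a ligand of the PDGF receptor alpha on mesenchymal cells, had 79.8, 92.7, 72.3 and 73.7 CPM with vehicle and 115, 271, 129 and 292 CPM with EVs in CCL206 cells, against 50.6 to 69.6 CPM in all Epcam+ libraries. The difference was 1.26 ± 0.27, and 1.19 with the length trend removed, still called. Areg, amphiregulin, a ligand of the EGF receptor, differed by 0.71 ± 0.19. Hgf, hepatocyte growth factor, had 112 to 131 CPM with vehicle and 126, 90.5, 130 and 50.1 CPM with EVs in CCL206 cells, so the groups overlapped, and 9.02 to 17.9 and 19.1 to 29.6 CPM in Epcam+ cells, where they did not. Its difference was -1.22 ± 0.30 while neither single effect was called (-0.35 ± 0.20 in CCL206 and 0.86 ± 0.22 in Epcam+ cells). Fgf2 differed by -1.15 ± 0.31, with effects of -0.40 ± 0.19 in CCL206 and 0.75 ± 0.24 in Epcam+ cells, neither called. With the length trend removed, Areg (0.22), Hgf (-0.83) and Fgf2 (-0.79) lost their calls. Fgf7 and Fgf10, ligands for epithelial FGF receptor 2 chosen after their values were seen, had differences of -0.52 ± 0.23 and -0.49 ± 0.28, neither called.

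In the acute-phase and NF-kB list, 3 of 28 members were called higher (10.7% against 3.93% of all tested genes) and 1 lower (3.57% against 3.23%), and the median difference was 0.02. With the length trend removed, 1 was called higher and 2 lower. Il33, an alarmin cytokine stored in nuclei, had 70.6, 64.1, 52.0 and 53.2 CPM with vehicle and 114, 114, 83.4 and 82.1 CPM with EVs in CCL206 cells. Its Epcam+ levels were 136 to 176 CPM with vehicle and 154 to 188 CPM with EVs, which overlapped. The CCL206 groups did not overlap, and the rise was 0.69, 0.83, 0.68 and 0.62 on the log2 scale in mice 1 to 4. The difference was 0.58 ± 0.14, 0.62 with the length trend removed (adjusted p = 0.043) and 0.56 without mice 2 and 4 (adjusted p = 0.15). Ccl20, a chemokine for lymphocytes and dendritic cells, had 1.68, 2.49, 1.12 and 0.790 CPM with vehicle and 6.43, 7.17, 5.33 and 7.28 CPM with EVs in CCL206 cells and 11.9 to 32.2 CPM in vehicle Epcam+ cells. The difference was 1.49 ± 0.35 overall and 0.13 in mouse 2, and it was not called with the length trend removed (0.77). Cd14, a co-receptor for bacterial lipopolysaccharide, differed by 0.71 ± 0.19, and Slc39a14, a zinc transporter, by -0.80 ± 0.22. Both lost their calls with the length trend removed (0.37 and -0.55).

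Some acute-phase genes and others with large responses to EVs were not called different between the fractions. Lcn2, lipocalin 2, which binds bacterial siderophores, had 13.8, 8.15, 10.5 and 10.3 CPM with vehicle and 48.9, 41.9, 41.4 and 51.5 CPM with EVs in CCL206 cells, and 38.0, 44.1, 26.1 and 41.9 CPM with vehicle and 142, 92.8, 108 and 120 CPM with EVs in Epcam+ cells. Neither pair of groups overlapped, and the difference of 0.44 ± 0.22 was not called (adjusted p = 0.18). Saa3, an acute-phase apolipoprotein, rose by 4.21 ± 0.40 in CCL206 and 2.96 ± 0.42 in Epcam+ cells, with a difference of 1.25 ± 0.58 that was not called. Its vehicle libraries held only 1 to 12 counts in CCL206 and 1 to 18 in Epcam+ cells, so the size of these rises is uncertain. Chil1, a chitinase-like secreted protein, rose by 1.18 ± 0.13 and 1.02 ± 0.12 and differed by 0.16 ± 0.17. Hsd11b1, which regenerates active glucocorticoid, rose in CCL206 cells by 1.89 ± 0.25, was not called in Epcam+ cells, and had a difference of 0.40 ± 0.47. These 4 genes were chosen after their values were seen, and a p that misses the threshold does not show equal responses.

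In the complement list, C4b was the called member of 11 (-0.65 ± 0.18), a share of 9.09% against the 3.23% of all tested genes called lower. The C4b difference was -0.39, -0.98, -0.48 and -0.78 in mice 1 to 4, and it lost its call with the length trend removed (-0.37, adjusted p = 0.13). The EV effect on C4b was -0.11 ± 0.12 in CCL206 and 0.54 ± 0.14 in Epcam+ cells, neither called. In the list, 9 of the 11 differences lay below 0 with a median of -0.62. The list's median was -0.42, -0.41, -0.48 and -0.41 in mice 1 to 4, each nearer 0 than the fitted -0.62. It was -0.46 with the length trend removed and -0.26 with the 3 trends removed. Among 14 glucocorticoid response genes, the metallothioneins Mt1 (1.15 ± 0.23) and Mt2 (0.91 ± 0.23) were called higher, and neither was called with the length trend removed (0.35 and 0.09). In the contractile and YAP list, Myl6, a myosin light chain (0.84 ± 0.21), and Tpm2, a tropomyosin (0.81 ± 0.22), were called higher and Vcl, vinculin of focal adhesions (-0.80 ± 0.22), and Irag1 lower out of 23 members. Of these, Tpm2 and Irag1 kept their calls with the length trend removed, and Myl6 was at -0.03. In the ATF4 and amino acid list, Psph, the last enzyme of serine synthesis, differed by 0.93 ± 0.21 and kept its call with the length trend removed (0.80). Nupr1, a stress-induced chromatin protein, differed by 0.49 ± 0.14 but by -0.26 with the trend removed, and Vldlr, a lipoprotein receptor, by -0.74 ± 0.19 and by -0.21 with the trend removed, neither still called. The shares called in either direction were 14.3% for the glucocorticoid, 17.4% for the contractile and YAP and 15% for the ATF4 list, against 7.16% of all tested genes.

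Eno1, enolase of glycolysis, was the called member of 26 glycolysis and hypoxia genes (0.52 ± 0.15), a share of 3.85% that is near the 3.93% of all tested genes, and it lost its call with the length trend removed (0.37, adjusted p = 0.087). Of the 26, 18 were called up with EVs in CCL206 cells, where 16.9% of all tested genes were called up. No member was called in the lists of interferon response (25 tested), metalloproteinases and TIMPs (15), endoplasmic reticulum folding (21), sterol and fatty acid synthesis (22), cell cycle (29), p53 targets (18) and lysosome (27). Their median differences ranged from -0.25 for metalloproteinases to 0.26 for interferon response.

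**Figure D5:**
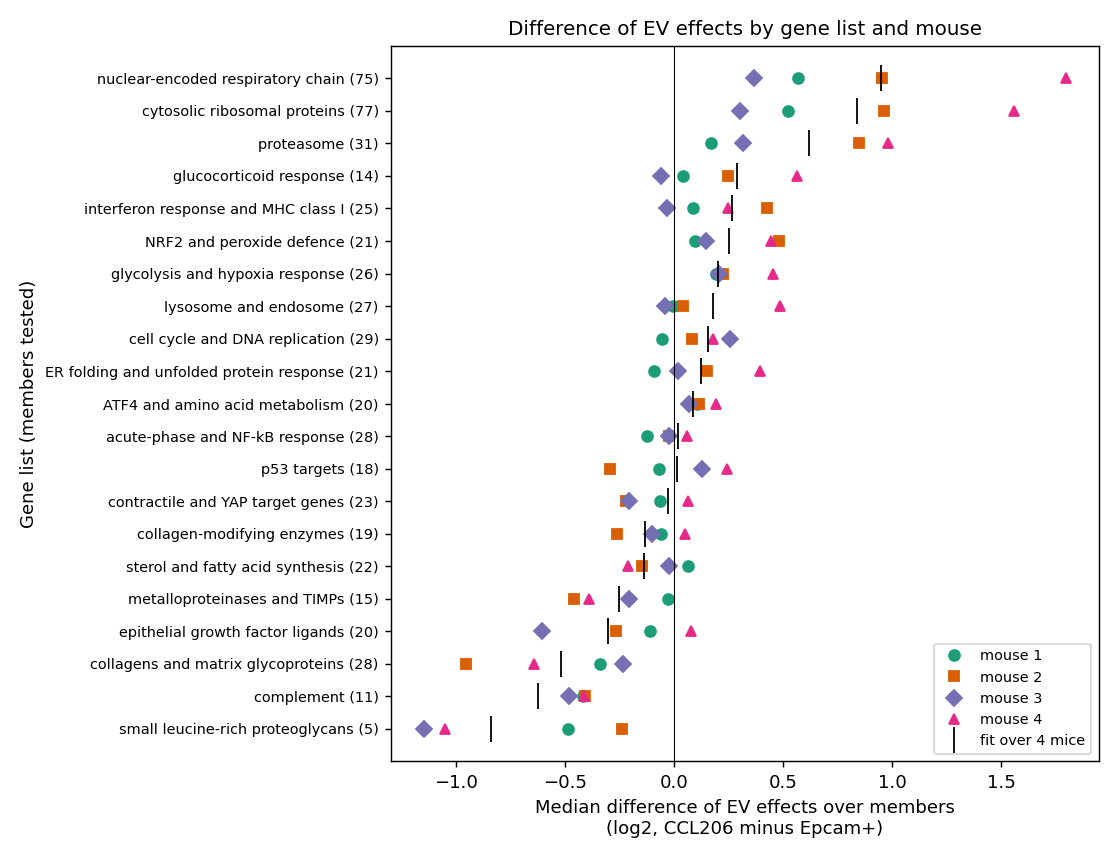
The x axis gives the median difference of EV effects (log2, CCL206 minus Epcam+) over the members of each of 21 gene lists, with 1 symbol per mouse and a black bar for the fit over 4 mice, and the number of members tested is in brackets. Respiratory chain, ribosomal and proteasome genes lie above 0 in all 4 mice with mouse 4 highest, and small leucine-rich proteoglycans, complement and matrix genes lie below 0 in all 4.

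The 22 genes called both with all 4 mice and without mice 2 and 4, chosen for mention by that outcome, held 16 with the higher and 6 with the lower response in fibroblasts. The named higher genes among them were Romo1, Rpl41, Cops9, Rpl37a, Rpl34, Cox6a1 and Atp5e. The others included the ATP synthase subunits Atp5md (1.96 with all mice, 1.44 without mice 2 and 4), Atp5d (1.23 and 0.84) and Atp5j2 (1.36 and 0.99), the ribosomal proteins Rpl37 (1.40 and 0.96) and Rpl38 (1.80 and 1.17), and the calcium-binding protein S100a6 (1.42 and 1.09). The lower genes included Clic5, Akap5, the epithelial membrane mucin Muc4 (-1.86 and -1.58) and Prune2 (-1.69 and -1.09). Of the 22, 14 were also called with the length trend removed. Among these, Atp5md and Atp5mpl had no matched length, and Rpl37a, Rpl37 and Rps20 had annotated transcripts of 3762, 6111 and 3710 nt. The removal did not lower their values.

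The 4 cultures differed in size more than in direction. The median difference over the 463 higher genes was 0.63, 1.10, 0.74 and 1.90 in mice 1 to 4, and over the 381 lower genes it was -0.57, -1.21, -0.71 and -1.49. With the length trend removed, the same medians were 0.36, 0.68, 0.55 and 1.11 for the higher genes and -0.42, -0.67, -0.48 and -0.70 for the lower genes. These genes were chosen from the same libraries, so the medians describe them and test nothing. The CCL206 EV libraries of mice 1 to 4 had 3105312, 3868922, 7605452 and 3906707 counts, and the lowest depths among the vehicle Epcam+ libraries were 3067660 in mouse 2 and 3559193 in mouse 4. With all libraries thinned to the lowest depth, 932 genes were called.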

How the data were processed

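RNA of both fractions was sequenced by the authors on a NovaSeq and the deposited table holds raw counts per gene for 32 libraries. Per the labels, reads were trimmed with Trimmomatic 0.30 and DESeq2 1.34.0 was used. The labels and the paper's methods name different builds (GRCm39 and GRCm38.p6), and the aligner and counting are not given in the sources used here. The 16 vehicle and EV libraries were fitted with edgeR 4.0.16 (quasi-likelihood F test, TMM, filterByExpr, prior count of 2, R 4.3.3), with the mouse within fraction as a block and EV terms per fraction. The contrast was the CCL206 effect minus the Epcam+ effect, with p-values adjusted over all tested genes (Benjamini-Hochberg). The mice pair the libraries because the labels give the animal. Deviations from the group means in vehicle and EV libraries of the same mouse and fraction correlated at -0.06 to 0.21 (5 of 8 pairs over 0.1). Errors of fitted values are SEs of the model, which treats the EV effects in the 2 fractions of 1 culture as independent. The pairing of the fractions by culture is thus not used, in the SEs or in the p-values. These SEs are not the spread of the differences over the 4 mice. CPM values use TMM library sizes. They compare a gene between libraries and not 1 gene with another.

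Transcript lengths came from GENCODE vM39 canonical transcripts (11686 of 11818 genes matched), which are long for some short genes. The trend of each library's deviation on log2 length was a lowess curve of span 0.3, used as an offset. Genes were named by rule: called, same sign in 4 mice and called with the trend removed, 12 with the smallest p in each direction, plus up to 4 called members per gene list. Some genes that the rule selects are not reported here. Members, gene lists and tests were chosen with earlier results of these data known. The alternatives were other normalisations, filters, tests, models and libraries left out. Each group had 4 libraries, whose replicate number was taken from the labels.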

Additional observations from a re-analysis of the deposited data

Results flagged for a closer look

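The response to EVs differed between CCL206 fibroblasts and Epcam+ cells for 844 genes by the test of the interaction itself. In 45 series of 4 mice (the leading genes and the medians of the gene lists), 5 had 1 mouse far from the other 3 by Dixon's criterion, which chance alone gives in about 1 of 20 series. Mouse 4 stood apart with a difference of 3.69 for Romo1 and 4.16 for Rpl41, while the other 3 mice lay between 1.40 and 1.86 for both genes. Mouse 4 also stood apart for the median of the glycolysis and hypoxia list at 0.45 and of the lysosome and endosome list at 0.49. Mouse 3 stood apart for the median of the complement list at -0.48, where the 4 mice spanned -0.48 to -0.41.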

How the results depend on the processing

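The count of genes whose response differed, 844, was 2815 with all 32 libraries in 1 model, 1749 with DESeq2, 1839 with limma voom and sample quality weights, 455 with no replicate block, 258 with the length trend removed, 24 without mice 2 and 4, and 0 (2832 at an unadjusted p under 0.05) with edgeR's glmTreat against 1.2-fold. It stayed within 1.5 times under RLE size factors (798), no filter (770), at least 10 counts in every library (679), thinning (932) and removal of 3 trends (650). Leaving out 1 mouse gave 0 to 1390, and 0 to 879 with the length trend also removed. The count in CCL206 cells, 3759, was 1542 with glmTreat, 2149 with the length trend removed, 2219 with 3 trends removed, 219 without mice 2 and 4, and 25 to 3890 with 1 mouse left out. The count in Epcam+ cells, 6, was 90 with 32 libraries, 3 with at least 10 counts, 69 with DESeq2, 148 with voom, 46 with the length trend removed, 47 without mice 2 and 4, 39 with 3 trends removed, and 1 to 29 with 1 mouse left out. The cause of these shifts was not tested.

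Of the named genes, 3 turned direction: Mt2 (-0.11 with 3 trends removed), Myl6 (-0.028 with the length trend removed) and Nupr1 (-0.26 and -0.43 in those fits, the latter with 3 trends). Of 60 named and called genes, 43 stayed called without the replicate block, 9 without mice 2 and 4, 0 without mouse 2 and 1 without mouse 4. The fit on 2 mice has few degrees of freedom, and the 3 trends and the leave-one-out fits with the length trend removed were chosen after seeing the data. Depth limits genes near 1 CPM, since the shallowest library holds 3067660 counts.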
